A study of Mus musculus with 4 samples.

Results

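The chondrocyte regulators and cartilage matrix genes examined here were 3 transcription factors, Sox9, Sox5 and Sox6, and 7 genes of the cartilage matrix, Acan, Hapln1, Matn1, Matn3, Comp, Prg4 and Chad. They were taken by name from the mRNA expression values, and the values of all transcripts carrying a gene's symbol were summed, which gave 10 genes of 21878 in all and 74 transcripts of 75959. The study sequenced RNA of C3H10T1/2 cells, an established mouse line of mesenchymal stem cell character, in 2 untreated samples (replicates 1 and 2) and 2 samples treated with 5-azacytidine (5-AZA, replicates 101 and 102). 5-AZA is a cytidine analog that is built into nucleic acids and blocks DNA methyltransferases. It was given at 20 µM for 72 hours, after which the cells were kept for 21 days without it. The labels give no matching culture time for the untreated samples, so the effects of the drug and of time in culture cannot be told apart. The study calls the replicates biological repeats, while the labels do not say whether they came from separate cultures. If they did not, p-values measure only the spread between these samples.

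In cartilage, Sox9 switches on the genes of the chondrocyte, and Sox5 and Sox6, which carry the same kind of DNA-binding domain but no activation domain of their own, work with it at the same enhancers. The matrix they control is a network of type II, IX and XI collagen filled with aggrecan, which is held on hyaluronan threads by link protein. Matrilins, Comp and chondroadherin join these networks to each other and to the cell, and lubricin coats the surface of the joint.

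No methylation was measured in these samples. The promoters are shown because 5-AZA blocks DNA methyltransferases, which in mammals methylate cytosines mostly in CG pairs. The RefSeq promoter table (GRCm38.p6) held a start for 7 of the 10 genes, not for Sox9, Comp or Prg4. The 250 bases before the start are given 5′ to 3′ on the strand of the gene, with CG in capitals, for the 2 matrilin genes, which changed in opposite directions, for the start nearest the 3′ end of Sox6, the gene with the most transcripts, and for Acan, which was barely detected. Matn3 lies on the plus strand at chr12:8947679-8947928, Matn1 on the plus strand at chr4:130944135-130944384, the Sox6 window on the minus strand at chr7:115801610-115801859, and Acan on the plus strand at chr7:79052976-79053225.
Matn3: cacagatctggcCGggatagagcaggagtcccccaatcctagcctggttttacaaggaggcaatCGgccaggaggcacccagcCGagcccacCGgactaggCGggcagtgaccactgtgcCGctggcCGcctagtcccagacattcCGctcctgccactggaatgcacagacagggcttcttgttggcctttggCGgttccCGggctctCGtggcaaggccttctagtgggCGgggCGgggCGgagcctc
Matn1: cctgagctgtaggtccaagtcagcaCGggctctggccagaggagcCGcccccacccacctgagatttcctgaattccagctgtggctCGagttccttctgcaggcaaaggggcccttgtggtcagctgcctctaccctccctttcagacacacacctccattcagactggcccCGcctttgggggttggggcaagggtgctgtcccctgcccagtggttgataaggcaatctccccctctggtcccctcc
Sox6: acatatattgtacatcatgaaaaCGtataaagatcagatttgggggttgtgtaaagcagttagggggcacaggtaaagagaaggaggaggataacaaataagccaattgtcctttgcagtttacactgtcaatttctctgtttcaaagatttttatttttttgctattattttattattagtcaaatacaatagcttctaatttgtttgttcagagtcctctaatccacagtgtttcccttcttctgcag
Acan: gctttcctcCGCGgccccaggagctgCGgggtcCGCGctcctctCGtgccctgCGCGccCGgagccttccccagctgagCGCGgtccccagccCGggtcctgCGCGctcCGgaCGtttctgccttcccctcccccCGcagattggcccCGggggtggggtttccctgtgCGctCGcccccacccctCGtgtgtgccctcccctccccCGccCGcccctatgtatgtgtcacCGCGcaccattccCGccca

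The Matn3 window held 14 CG and the Matn1 window 4, against a median of 6 over the 32851 windows of the table. The observed over expected CG ratio, which corrects for base composition, was 0.527 for Matn3 and 0.17 for Matn1, beside a median of 0.373 over all windows. The Acan window was the densest of the 4, with 26 CG and a ratio of 0.81, and the Sox6 window the sparsest, with 1 CG and a ratio of 0.14. The table held 6 starts of Sox6, with 1 to 10 CG and ratios from 0.14 to 0.735, the highest ratio being that of the start farthest upstream, so the window shown does not stand for the others. Of 4 short motifs searched on both strands, GGGCGG, the core of a GC box, matched 3 times for Matn3, 3 times for Acan and once for Matn1, and 32.7% of all windows held it. The letters ACAAT, part of the sequence that Sox proteins bind, matched 3 times in the Sox6 window and in 27.7% of all windows. TATAAA matched there 1 time and in 12.4% of all. The other Sox6 windows held 0 to 2 matches of ACAAT and 0 of TATAAA. Whether a listed start serves as a promoter in these cells was not tested. CAGCTG, an E-box form, matched 2 times for Matn1 and 1 time for Acan, and was in 13% of all windows. These matches describe the letters of the windows only.

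Expression was given as fragments per kilobase of transcript scaled to sequencing depth (FPKM), so that levels of different genes could be compared per length. A gene was tested when its mean over the 4 samples was at least 0.1 FPKM, and it was called when the limma test on log2(FPKM + 0.1) gave an adjusted p under 0.05 and a change of at least 2-fold. The values summed to between 328410 and 361664 FPKM per sample, and the steps between the circRNA values, in junction reads scaled to library size (RPM), correspond to depths of about 92900000 to 93900000 reads per sample. The read counts behind each FPKM value are not known. The fitted log2 changes understate those of low genes because of the added 0.1, and the median log2 change of the 13199 genes tested was 0.05.

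Of the 10 genes, 7 passed the limit on low values. Sox9, Sox6 and Matn1 were downregulated in the 5-AZA treated samples, Matn3 and Comp were upregulated, and Sox5 and Hapln1 did not pass the test. Acan and Prg4 were below the limit, and Chad was listed at 0 in every sample. The 2 genes called higher stood beside 13.1% of all genes tested that were called higher, and the 3 called lower beside 1.32% called lower. The share called lower depends on scaling. Of the 13199 genes tested, 174 were called lower here and 886 under quantile normalization, where 4 of the 7 were called lower. In each of the 7 the 2 groups did not overlap, which held for 62.2% of all genes tested. With no limit on low values, the calls of all 5 genes were lost, with limma adjusted p from 0.0593 to 0.111. In bulk samples such as these, fewer cells of a type and less RNA per cell cannot be told apart.

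**Figure D1:**
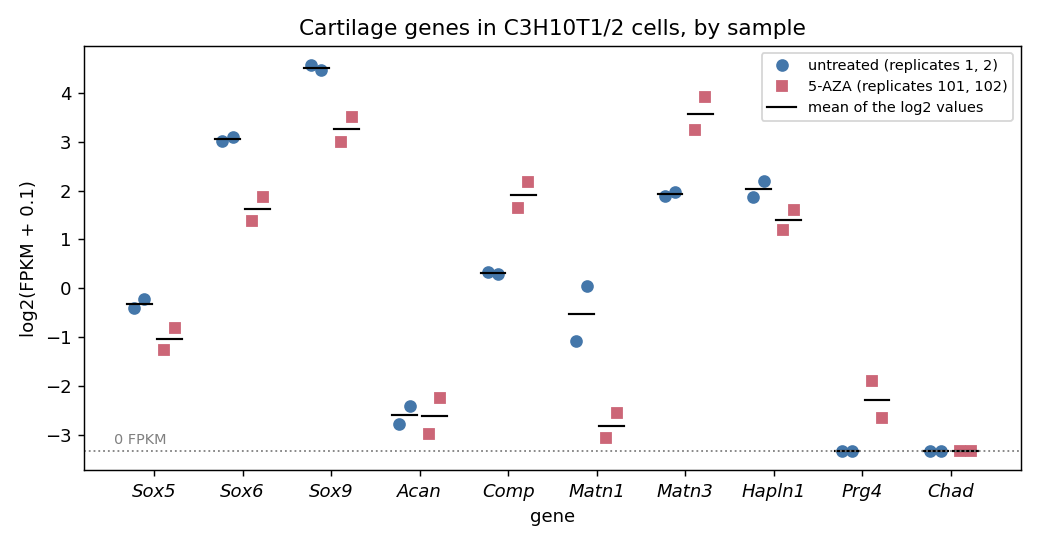
Level of each of the 10 genes as log2(FPKM + 0.1), with circles for the 2 untreated samples, squares for the 2 treated samples and bars for the means of the log2 values. Sox9 is at 23.5 and 21.9 FPKM in the untreated samples and at 7.91 and 11.3 FPKM in the treated samples, while Matn3 is at 3.61 and 3.83 FPKM and at 9.35 and 14.9 FPKM.

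The plot of the 10 genes by sample shows Sox5, Sox6 and Sox9 at the left, each with both treated samples below both untreated ones. Sox9, the factor required for cartilage to form, had 23.5 and 21.9 FPKM in untreated replicates 1 and 2, and 7.91 and 11.3 FPKM in 5-AZA replicates 101 and 102. Both treated values lay below both untreated ones. The means were 22.7 ± 1.14 and 9.60 ± 2.39 FPKM (SD, n = 2 each), a 2.37-fold lower level, and the log2 change was -1.26 (SE 0.17, limma adjusted p = 0.000754). Sox9 was the highest of the 10 genes in the untreated samples, above 88.9% and 88.5% of all genes, and stood above 73.4% and 77.5% in the treated samples.

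Sox6, which acts beside Sox9 in chondrocytes and has a separate known role in muscle fibres, had 7.94 and 8.45 FPKM in the untreated samples and 2.50 and 3.54 FPKM in the treated samples. The groups did not overlap, and the treated level was 2.72-fold lower. The log2 change was -1.43 (SE 0.19, limma adjusted p = 0.000791), the most negative of the 3 factors. Without 5-AZA replicate 101, the call of Sox6 was lost (limma adjusted p = 0.0547, log2 change -1.19), and over all alternatives and the test as reported the adjusted p of Sox6 ran from 6.99e-05 to 0.0593.

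Sox5, the near relative of Sox6, was far lower, at 0.656 and 0.758 FPKM in the untreated samples and 0.320 and 0.472 FPKM in the treated samples. Both treated values lay below both untreated ones. The log2 change was -0.72 (95% interval -1.42 to -0.01, limma adjusted p = 0.135), so Sox5 was not called. Under quantile normalization it was called (log2 change -1.78, limma adjusted p = 0.00513, within a range of 0.00513 to 0.458 over its alternatives). The Sox9 to Sox6 ratio of levels was 2.96 and 2.60 in the untreated samples and 3.17 and 3.19 in the treated samples, and the Sox6 to Sox5 ratio went from 12.1 and 11.1 to 7.80 and 7.50.

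Of the matrix genes, Acan, which encodes aggrecan, the large proteoglycan that lets cartilage bear load, had 0.0466 and 0.0889 FPKM in the untreated samples and 0.0263 and 0.111 FPKM in the treated samples. The groups overlapped and all 4 values were near the low end of the scale, so Acan was not tested. Hapln1, the link protein that holds aggrecan on hyaluronan, had 3.53 and 4.45 FPKM in the untreated samples and 2.19 and 2.96 FPKM in the treated samples. Its groups did not overlap, but the log2 change of -0.62 (95% interval -1.11 to -0.12, limma adjusted p = 0.0731) was not called.

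The 2 matrilins, filament-forming adaptor proteins of the matrix, moved apart. Matn1 had 0.372 and 0.941 FPKM in the untreated samples and 0.0195 and 0.0718 FPKM in the treated samples. It passed the limit on low values through the untreated samples, and the treated samples were both below 0.1 FPKM. The log2 change was -2.29 (SE 0.46, limma adjusted p = 0.00693). This call was lost without untreated replicate 2 (limma adjusted p = 0.0887), without 5-AZA replicate 101 (0.200) and without 5-AZA replicate 102 (0.158), and with 1 FPKM added in place of 0.1 the change was -0.64 and under 2-fold, so of the 5 called genes Matn1 lost its call under the most alternatives. Over all its alternatives its adjusted p ran from 0.000877 to 0.200.

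Matn3 had 3.61 and 3.83 FPKM in the untreated samples and 9.35 and 14.9 FPKM in the treated samples. Both treated values lay above both untreated ones, and the means of 3.72 ± 0.159 and 12.1 ± 3.90 FPKM (SD, n = 2 each) differed 3.26-fold. The log2 change was 1.64 (SE 0.21, limma adjusted p = 0.000637). The Matn3 to Matn1 ratio of levels was 9.70 and 4.07 in the untreated samples, and none is given for the treated samples, where Matn1 was below 0.1 FPKM. Without 5-AZA replicate 102, the higher of the 2 treated samples, the call of Matn3 was lost (limma adjusted p = 0.0563, range 4.21e-06 to 0.0714).

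Comp, a pentameric glycoprotein that binds collagen and is found in tendon as well as cartilage, had 1.17 and 1.12 FPKM in the untreated samples and 3.02 and 4.41 FPKM in the treated samples. The groups did not overlap, and the means of 1.15 ± 0.0323 and 3.72 ± 0.980 FPKM (SD, n = 2 each) differed 3.24-fold. The log2 change was 1.59 (SE 0.24, limma adjusted p = 0.00140). Without 5-AZA replicate 102 this call was lost as well (limma adjusted p = 0.0739, range 0.000128 to 0.0739). Comp lay below Hapln1 in both untreated samples, with a ratio of levels of 0.332 and 0.253, and above it in both treated samples, with 1.38 and 1.49.

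Prg4, which encodes lubricin, was listed at 0 in both untreated samples and at 0.170 and 0.0589 FPKM in the treated samples. Its mean was below the limit, so it was not tested, and different transcripts carried the value, NM_001110146.1 in replicate 101 and XM_017313032.1 in replicate 102. Chad, which encodes chondroadherin, a leucine-rich protein that cells adhere to, was listed at 0 in all 4 samples.

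By mean level the untreated order was Sox9, Sox6, Hapln1, Matn3, Comp, Sox5, Matn1 and Acan. Hapln1 and Matn3 had overlapping ranges, as did Sox5 and Matn1. In the treated samples the order began with Matn3 and Sox9, whose ranges overlapped, followed by Comp, Sox6 and Hapln1, each overlapping its neighbour, then Sox5, Prg4, Acan and Matn1, the last 3 overlapping their neighbours.

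The summed values rest on very different numbers of transcripts. Sox6 had 31 transcripts and Sox5 had 28, while Sox9, Matn1, Matn3 and Chad had 1 each. Of the 74 transcripts, 15 passed the limit and 2 were called, Matn3 NM_010770.4 (limma adjusted p = 0.0443) and Sox9 NM_011448.4 (0.0447), where 2.36% of all transcripts tested were called. Transcripts of Sox6 share most of their exons, and how reads were divided among them is uncertain.

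**Figure D2:**
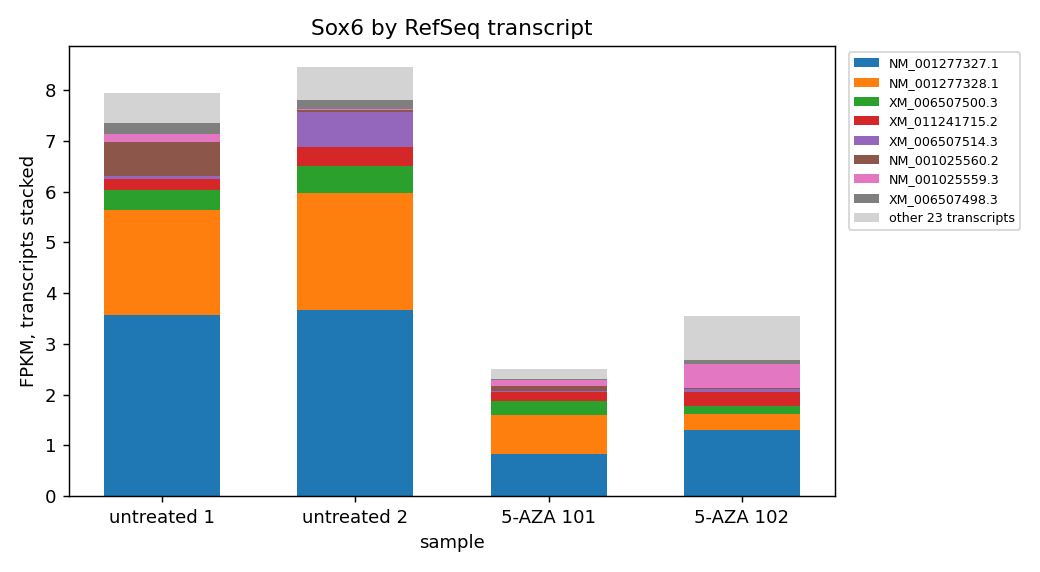
Stacked bars of Sox6 FPKM in each of the 4 samples (vertical axis from 0), with the 8 tested transcripts in colours and the other 23 in light grey. NM_001277327.1, at the bottom of each bar, is the highest, at 3.57 and 3.67 FPKM in the untreated samples and 0.825 and 1.29 FPKM in the treated samples.

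The plot of Sox6 transcripts shows that 2 of the 31 had a mean above 1 FPKM. NM_001277327.1 had 3.57 and 3.67 FPKM in the untreated samples and 0.825 and 1.29 FPKM in the treated samples (log2 change -1.71, limma adjusted p = 0.0799). NM_001277328.1 had 2.08 and 2.31 FPKM in the untreated samples and 0.770 and 0.319 FPKM in the treated samples (log2 change -1.92, limma adjusted p = 0.150). Neither was called, although the groups did not overlap for either. NM_001277327.1 made up 44.1% of the Sox6 total in the untreated samples and 35.1% in the treated samples. Among the other genes with more than 1 transcript, the highest were Comp NM_016685.2 (log2 change 1.60, limma adjusted p = 0.0842) and Hapln1 NM_013500.4 (log2 change -0.62, limma adjusted p = 0.379). The highest Sox5 transcript, XM_011241580.2, had 1.17e-06 and 0.322 FPKM in untreated replicates 1 and 2. It had 0.00151 and 0.0799 FPKM in the treated samples, so its level rests mostly on 1 sample. No transcript of Acan or Prg4 passed the limit, and their highest were NM_007424.2 and NM_001110146.1.

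Of 4295 circular RNAs (circRNAs), which are closed by a junction between the end of an exon and the start of an earlier one, 3 came from these genes, and all 3 came from Sox6 on the minus strand of chromosome 7. circRNA_3654 (chr7:115659516-115662444, 242 bases after splicing) had 5 junction reads in each untreated sample and 0 in each treated sample. Its log2 change in RPM was -1.82 (limma adjusted p = 0.119). circRNA_3652 (chr7:115541622-115550159) and circRNA_3653 (chr7:115579016-115597619) each had 2 reads in untreated replicate 1 and 0 in the other three samples. The fewest reads listed for any circRNA were 2, so 0 stands for fewer than 2 reads. limma called 0% of the 1360 circRNAs tested, and 251 had an unadjusted p under 0.05.

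Of the long noncoding RNAs (lncRNAs), 76 overlapped the span of one of these genes, 8 were tested, and limma called 0 (2 had an unadjusted p under 0.05), where 1.14% of all lncRNAs tested were called. NONMMUT012603.2, a single-exon lncRNA on the plus strand within Sox9 (chr11:112786925-112787750), had 61.9 and 47.8 FPKM in the untreated samples and 23.0 and 18.9 FPKM in the treated samples. Its log2 change of -1.38 (limma adjusted p = 0.132) was not called, and since it lies inside the span of Sox9 on the same strand, reads of the 2 cannot be told apart. NONMMUT127675.1, on the minus strand within Sox6 (chr7:115817370-115819051), had 1.29 and 1.48 FPKM in the untreated samples and 2.97 and 4.05 FPKM in the treated samples (log2 change 1.27, limma adjusted p = 0.211). NONMMUT127675.1 also lies inside the span of its gene, Sox6, on the same strand. Whether its reads are separate from those of Sox6 was not tested. Both lncRNAs were named after their values were seen. The median log2 change of the lncRNAs tested was -0.23.

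Other genes listed for cartilage, not all of them particular to it, were grouped by role, and 74 of 91 in the file were tested. limma called 22 of these, 8 higher and 14 lower. These were 10.8% and 18.9% of the 74. Of all genes tested, 13.1% were called higher and 1.32% lower, so the share called higher was near that of all genes. The share called lower depends on scaling. Of the 13199 genes tested, 174 were called lower here and 886 under quantile normalization, where 25 of the 74 were called in either direction. Of the 22, 3 passed the limit on low values through 1 group, the other group's mean being under 0.1 FPKM.

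**Figure D3:**
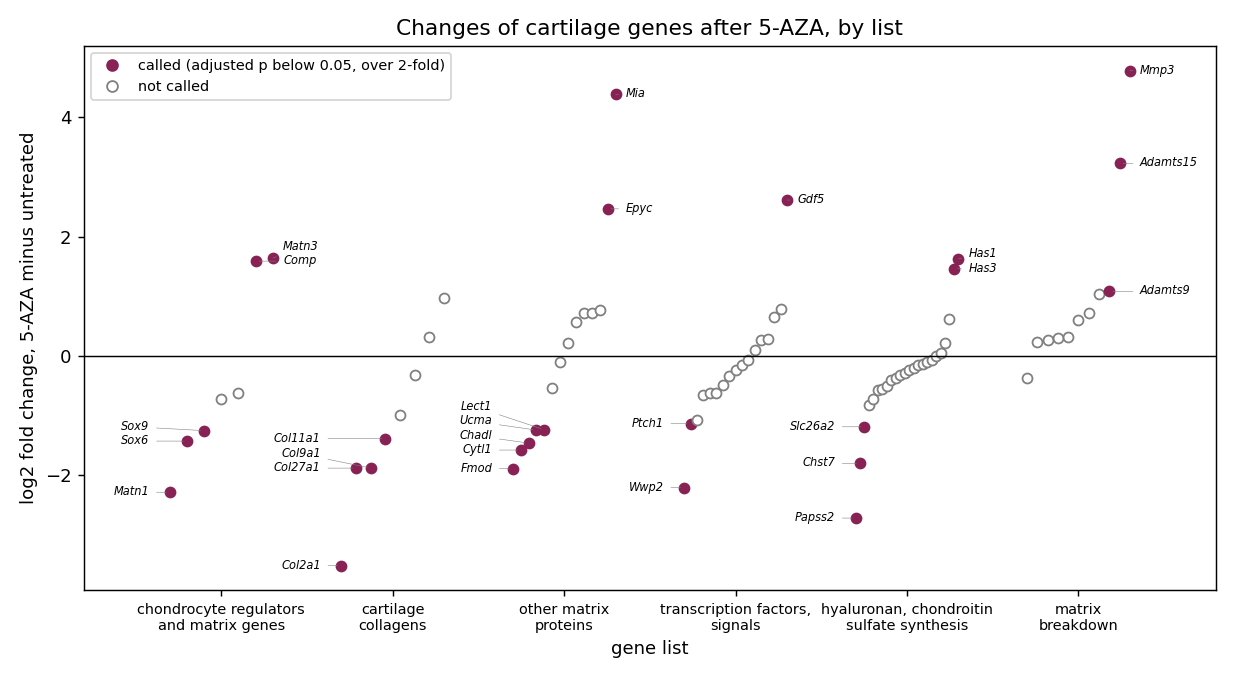
Log2 change (5-AZA treated minus untreated, vertical axis) of every tested gene, 1 point a gene and filled where called, in the 10 genes and in 5 further lists of cartilage genes. The 4 called collagens are lower, from -1.39 for Col11a1 to -3.52 for Col2a1.

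The plot of log2 changes by list shows the collagens furthest to the lower side. All 8 cartilage collagen genes were tested, 4 were called lower and 0 higher, and their median log2 change was -1.19, beside 0.05 for all genes. Not all of them moved down. Among those not called, Col10a1 changed by 0.97 and Col9a2 by 0.32 on the log2 scale, while Col9a3 changed by -0.99 and Col11a2 by -0.32. Col2a1, the main fibril collagen of cartilage and a direct Sox9 target, had 67.5 and 57.1 FPKM in the untreated samples and 4.13 and 6.84 FPKM in the treated samples (log2 change -3.52, limma adjusted p = 7.35e-06). Col9a1, which coats those fibrils, changed by -1.88, Col11a1, which seeds them, by -1.39 and Col27a1, another fibril collagen, by -1.88 on the log2 scale. Of 6 chondrocyte markers, Col2a1, Col9a1, Col11a2, Cnmd, Acan and Sox9, 5 were at 1 FPKM or more in both untreated samples, and Acan was not. In all 4 samples 4 of the 6 were at 1 FPKM or more, as Col11a2 was at 0.942 FPKM in 5-AZA replicate 101.

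Among factors and signals that act on chondrocytes, 17 of 23 genes were tested. Of these 1 was called higher and 2 lower, and the list's median log2 change was -0.24. Wwp2, a ubiquitin ligase gene, had 81.6 and 75.4 FPKM in the untreated samples and 15.7 and 18.1 FPKM in the treated samples (log2 change -2.21, limma adjusted p = 3.19e-06). Ptch1, the hedgehog receptor, had 2.44 and 1.88 FPKM in the untreated samples and 0.768 and 1.10 FPKM in the treated samples (log2 change -1.14). Gdf5, a ligand of the forming joint, had 0.0509 and 0.0122 FPKM in the untreated samples and 0.532 and 0.905 FPKM in the treated samples (log2 change 2.61), and it passed the limit on low values through the treated samples. Bmpr1a, a BMP receptor and the highest gene of this list by its mean over all 4 samples, had means of 62.2 and 59.5 FPKM and was not called. Under quantile normalization 7 of the 17 were called lower.

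Of the 22 other matrix protein genes, 14 were tested, 2 were called higher and 5 lower, and their median log2 change was 0.05, which became -0.06 when each sample was centred on its median and -0.59 under quantile normalization. Lect1, listed under the older symbol of Cnmd and encoding chondromodulin, was the highest, with 230.7 and 280.2 FPKM in the untreated samples and 79.3 and 145.6 FPKM in the treated samples (log2 change -1.24). The other four called lower were Fmod, which encodes the collagen-binding fibromodulin (log2 change -1.89), the cytokine-like secreted Cytl1 (-1.58), Chadl (-1.46) and Ucma (-1.25). Mia rose from 0.800 and 1.37 FPKM to 19.8 and 29.0 FPKM (log2 change 4.39), and Epyc, a small leucine-rich proteoglycan, from 5.76 and 6.85 FPKM to 34.8 and 35.6 FPKM (log2 change 2.47).

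Among the genes that assemble, modify and sulfate matrix chains, 24 of 27 were tested, 2 were called higher and 3 lower, and the median log2 change was -0.27. Papss2, which makes the sulfate donor, fell from 58.3 and 64.2 FPKM to 7.67 and 11.0 FPKM (log2 change -2.72, limma adjusted p = 7.35e-06). Chst7, a sulfotransferase, changed by -1.81 and Slc26a2, a sulfate transporter, by -1.19 on the log2 scale. The hyaluronan synthases Has1 and Has3 changed by 1.63 and 1.46 at mean levels of 1.08 and 0.605 FPKM in the treated samples, and under quantile normalization 0 genes of the list were called higher. Ugdh, which makes a building block of these chains and was the highest of the list, had means of 110.5 and 88.4 FPKM and was not called.

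Of 12 genes of matrix breakdown and its inhibitors, 11 were tested. Of these 3 were called higher and 0 lower, and the median log2 change was 0.60. Mmp3 and Adamts15 passed the limit on low values through the treated samples, their untreated means being under 0.1 FPKM. Centring each sample on its median left 2 genes called and a median of 0.49, and quantile normalization 2 and 0.18. Mmp3, a matrix protease, was listed at 0 in both untreated samples and at 2.62 and 2.69 FPKM in the treated samples (limma adjusted p = 8.88e-06). Adamts15 rose from 0.104 and 0.0255 FPKM to 1.31 and 1.49 FPKM, and Adamts9 from 0.538 and 0.478 FPKM to 1.21 and 1.16 FPKM. Timp3, a protease inhibitor and the highest of the list, had means of 223 and 339 FPKM, a change under 2-fold that was not called.

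Markers of other cell types differed between the groups too, and their part in the results above was not tested. All 11 tested muscle markers of 12 were called higher, and their summed level was 1.62 and 1.28 FPKM in the untreated samples and 821 and 1256 FPKM in the treated samples, with Myf5 at 0 in all 4. Of 8 adipocyte markers, 7 were tested and 6 called higher, with sums of 47.8 and 32.8 FPKM in the untreated samples and 1108 and 1524 FPKM in the treated samples. Of 12 osteoblast markers, 7 were tested and 5 called higher. The sums of the list were 144 and 148 FPKM in the untreated samples and 493 and 438 FPKM in the treated samples. Most of each sum came from Spp1, at 133 and 123 FPKM in the untreated samples and 437 and 377 FPKM in the treated samples. Ibsp was at 0 in all 4, and Sp7 below 0.2 FPKM in each sample. Alpl was at 0 in both untreated samples and at 0.0325 and 0.0796 FPKM in the treated samples. Under quantile normalization 3 of the osteoblast markers were called higher and 2 lower, and after median centring 4 higher. The 2 treated samples differed in these sums, with replicate 102 above replicate 101 for muscle and adipocyte markers. Replicate 102 was also the higher of the 2 for all 7 tested cartilage genes named at the start. The matching share of all genes tested was not counted, so this cannot be called particular to them. Of 5 tendon markers, 4 were tested, 1 was called higher and 1 lower. Tnmd fell from 127 and 130 FPKM to 7.46 and 6.99 FPKM and Kera rose from 0.0503 and 0.0814 FPKM to 0.508 and 0.271 FPKM. Of the neural markers 6 of 8 were tested, with 3 called higher and 1 lower, and Snap25 was at 0 in all 4 samples. Of the smooth muscle markers 3 of 4 were tested, with 2 called higher, and of the immune markers 2 of 5, with 1 called higher and Cd3e at 0 in all 4. Under quantile normalization the calls were 0 higher and 1 lower for tendon, 2 higher and 2 lower for neural and 0 for immune markers, while those of the muscle, adipocyte and smooth muscle lists had the same counts. Of the 11 muscle markers called, 7 had an untreated mean under 0.1 FPKM and passed the limit through the treated samples. The same held for 1 called gene each of the tendon (Kera), osteoblast (Bglap), adipocyte (Cidec), neural (Sox10) and smooth muscle (Cnn1) markers.

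**Figure D4:**
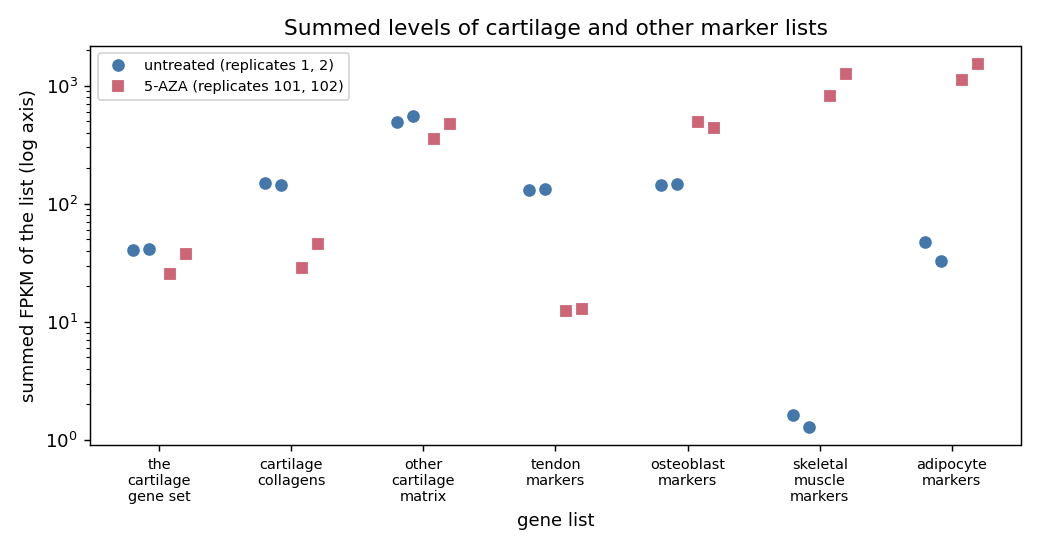
Summed FPKM (vertical axis, log scale) of 3 cartilage lists and 4 marker lists, with circles for the untreated samples and squares for the treated samples. The muscle sum is 1.62 and 1.28 FPKM in the untreated samples and 821 and 1256 FPKM in the treated samples.

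The plot of marker sums shows the muscle and adipocyte lists apart from the rest. Across all genes, 1724 were called higher and 174 lower, so that 90.8% of the calls were higher, and under quantile normalization 1041 were higher and 886 lower, or 54.0%. Centring each sample on its median moved the median log2 change of all genes from 0.05 to -0.06. Each of the 5 called genes among the 10 kept its call under both scalings.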

How the data were processed

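Per the labels and the study's methods, RNA of C3H10T1/2 cells was sequenced on an Illumina instrument, and the authors trimmed reads with Trimmomatic 0.30. The submitters' processing notes also list HISAT2, Bowtie2 2.2.9, eXpress 1.5.1 and the build mm9, with no role or order. The deposited circRNA host transcripts matched a GRCm38.p6 gene exactly at the start or at the end in 2890 of 4190 cases (69%). Matches at both ends were not counted. After a shift of 100 bases the share was 0.191%, so coordinates are given as GRCm38. The authors deposited mRNA and lncRNA values as FPKM per transcript and circRNA values as RPM of junction reads. The study's own count test needs read counts, which these values are not, so limma 3.58.1 in R 4.3.3 was run on log2(FPKM + 0.1) with trend, over all genes with a mean of at least 0.1 FPKM, 2 samples against 2, with Benjamini-Hochberg adjustment. The scripts were tested on simulated data. Calls needed an adjusted p under 0.05 and a 2-fold change. An exact permutation test of 2 against 2 cannot go below p = 0.333 (2-sided), so none was used. RPM values came out as whole multiples of 1 junction read, while the read counts behind the FPKM values are not known.

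The genes and lists were chosen with earlier results of these data known. All 10 genes were named, and of each cartilage list up to 6 called genes with the largest changes plus the highest gene. Of 146 listed gene names beside the members, 1 (Snorc) was not analysed here, and Cnmd and Bpnt2 were found as Lect1 and Impad1. Alternatives were other pseudocounts (1 and 0.01), no limit or a mean of at least 1 FPKM, median centring, quantile normalization, no trend, curated transcripts only, and leaving out each sample.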

Additional observations from a re-analysis of the deposited data

How the results depend on the processing

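No paired analysis was possible because the groups share no replicate number. Of the 10 genes, the 5 called became 0 with no limit on low values and 2 to 5 when 1 sample was left out, 3 without 5-AZA replicate 101 and 2 without 5-AZA replicate 102. With no limit, the limma adjusted p was 0.0722 for Sox9, 0.0593 for Sox6, 0.0617 for Comp, 0.0714 for Matn3 and 0.111 for Matn1, and the cause was not tested. Sox9 was called whichever sample was left out, but without 5-AZA replicate 101 its change only just passed the 2-fold limit. Sox6 lost its call in that setting with a larger log2 change of -1.19, so the calls do not set the 2 genes apart in stability. The 2 called transcripts became 0 with 0.01 FPKM added, 0 with no limit, 0 without trend, and 0 when any 1 sample was left out (0 to 0). The 22 called of the other cartilage genes became 11 with no limit and 9 to 22 when 1 sample was left out. Under every alternative run, each tested gene of the 10 kept its direction, and 0 circRNAs were called in either setting. Curated transcripts alone left Sox5 untested, and a mean of at least 1 FPKM left Sox5 and Matn1 untested. With 2 samples per group and 1 left out, the lone sample is assumed to vary like the others. Over all genes, leaving out 5-AZA replicate 101 gave 977 calls and leaving out 5-AZA replicate 102 gave 803, against 1687 to 1801 without an untreated sample. FPKM values carry no read counts, so precision for Acan, Prg4, Chad and Matn1 could not be set.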
